A study of Saccharomyces cerevisiae with 4 samples.

Results

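The genes described here encode 34 proteins of the small subunit processome and of 40S ribosome assembly in Saccharomyces cerevisiae. They were taken from a fixed list of symbols and matched to the gene symbols of the array annotation. All 34 listed genes were found, each with 1 probe, among the 6226 features that the arrays measured. Expression was compared between wild type 59A, a haploid derivative of the wine yeast EC1118, and a 59A sch9-deleted mutant in which the SCH9 open reading frame is replaced by a KanMX cassette giving resistance to G418. Both strains were grown without oxygen at 24 °C in synthetic grape must with 230 g/L of glucose and fructose, 142 mg/L of assimilable nitrogen and 5% of lipid factors, and, per the methods, were sampled at the same amount of released CO2. The methods name a second medium with less nitrogen beside it for these arrays, which the labels do not. The labels give 2 biological replicates per strain, with all 4 arrays on slide 1, at positions 6 and 1 for wild type replicates 1 and 2 and at positions 4 and 7 for mutant replicates 1 and 2. The mutant is a single gene deletion in 1 strain background, and nothing in the labels says that the replicates came from independently made deletions.

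The processome is a large complex that forms in the nucleolus on the nascent ribosomal RNA precursor, around the U3 small nucleolar RNA, and carries out the cleavages that release the 18S rRNA of the small ribosomal subunit. Its proteins come in preformed modules, among them UTP-A, UTP-B, the U3 snoRNP and the Mpp10 complex, and its genes belong to the ribosome biogenesis regulon, which yeast transcribes strongly when nutrients support growth. Sch9 is a protein kinase activated by TORC1, and in laboratory yeast it phosphorylates Stb3, Dot6 and Tod6, transcriptional repressors of that regulon. The comparison asks how the loss of this nutrient-signalling kinase alters gene expression in yeast fermenting a must poor in lipids.

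Values are log2 intensities, which the authors normalised between arrays. Log FC is the mean of the mutant arrays minus the mean of the wild type arrays, so that a negative log FC is a lower signal in the mutant. A gene is called lower or higher at an adjusted p under 0.05 (limma, Benjamini-Hochberg over all 6226 features), and down-regulated or up-regulated where its log FC is also beyond 1 in size. The targeted gene matched the labels, since its probe read 8.72 and 8.67 in wild type 59A and fell to 5.81 and 5.67 in the sch9 mutant, near the lowest value on any array (5.47), with a log FC of -2.96 ± 0.08 (SE, n = 2 per strain, limma adjusted p = 1.3e-04). The medians of the 4 arrays lay between 8.52 and 8.53. Between the strains the mating-type markers also differed in level. Each of the 7 a-specific genes was higher in the mutant (median log FC 2.03). AGA2, an a-agglutinin subunit, read 7.21 and 7.44 in the wild type and 10.72 and 10.75 in the mutant. In the wild type these 7 genes ranged from ASG7 (6.59 and 6.53) to MFA1 (10.94 and 10.83). Of the 4 alpha-specific genes 3 were higher (median log FC 0.74), and 2 of them were up-regulated, with SAG1 the highest at a log FC of 2.38. STE3, which encodes the a-factor receptor of alpha cells, read 5.72, 5.72, 5.74 and 5.69, near the floor of the arrays in both strains. Of 9 haploid-specific genes 4 were higher (44.4%) and 0 lower, where 14.6% of all features were higher and 12.1% lower. The part of these differences in the results below was not tested.

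The sch9 mutant had less mRNA signal for much of the processome. Of the 34 genes, 13 were lower in the mutant and 0 higher, and 21 missed the threshold, where 12.1% of all features were lower and 14.6% were higher. At an unadjusted p under 0.05, 29 of the 34 were below the wild type and 0 above it. For this looser threshold no share of all features is given, here or below, so such counts have no background to be read against. With the additional requirement of a log FC beyond 1 in size, 4 were down-regulated, namely NSR1, UTP8, SNU13 and BFR2, and 0 were up-regulated, where 1.64% of all features were down-regulated and 2.18% up-regulated. The median log FC of the 34 genes was -0.62, against -0.01 over all features. Of the 34 values 33 were below 0, as were 3220 of the 6226 features. The values spread over a continuous range, with 6 genes below -1, 16 between -1 and -0.5, 11 between -0.5 and 0 and 1 at 0. In 32 of the 34 genes both mutant arrays read below both wild type arrays, which held for 35.8% of all features. Arrays of whole cultures cannot tell a loss of these mRNAs in every cell from a smaller number of cells that express them, nor from less of them relative to the other RNA of the cell.

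**Figure D1:**
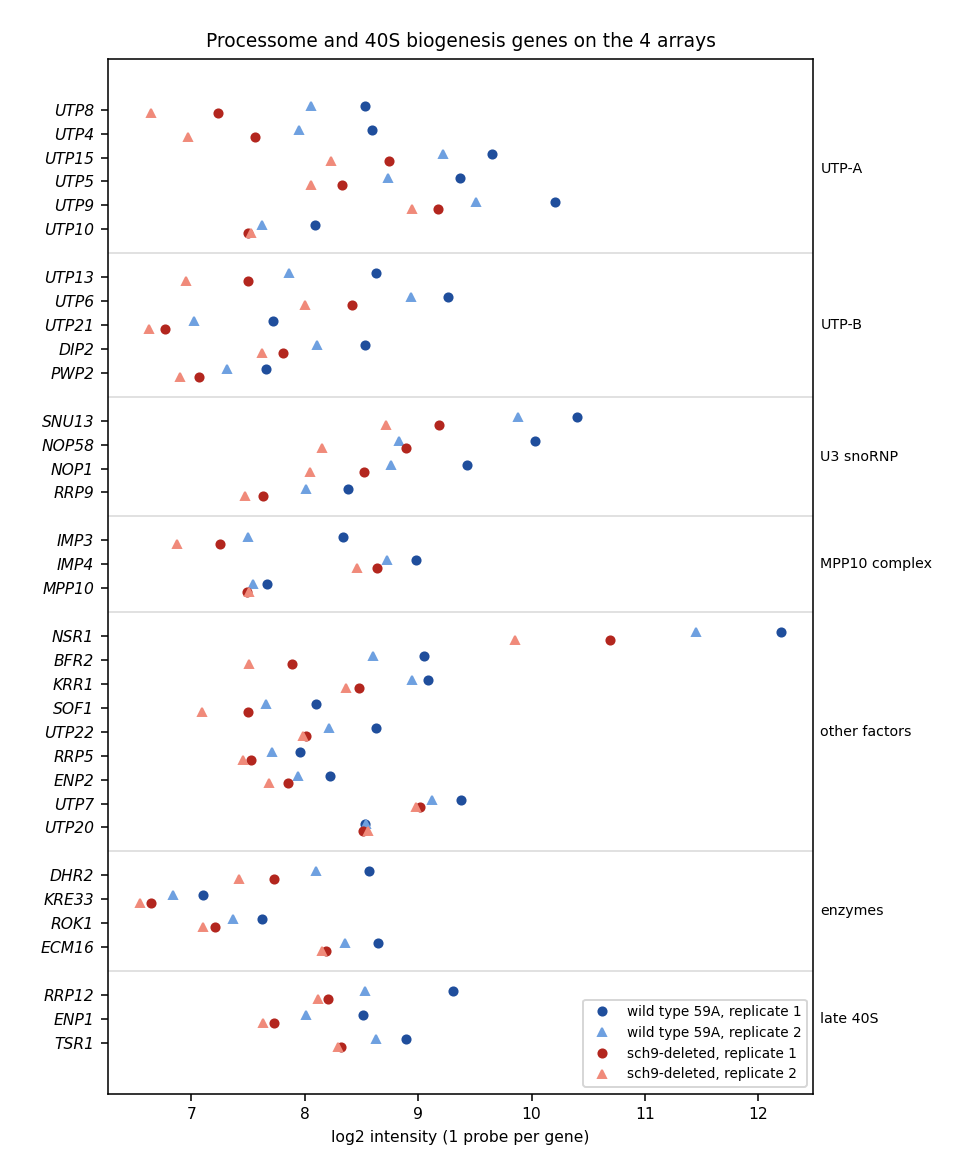
Log2 intensity (horizontal axis) of the 34 genes on each of the 4 arrays, grouped by complex, with wild type 59A in blue, the sch9-deleted mutant in red, circles for replicate 1 and triangles for replicate 2. Both mutant arrays lie to the left of both wild type arrays in 32 genes, and the exceptions are NOP58 and UTP20.

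**Figure D2:**
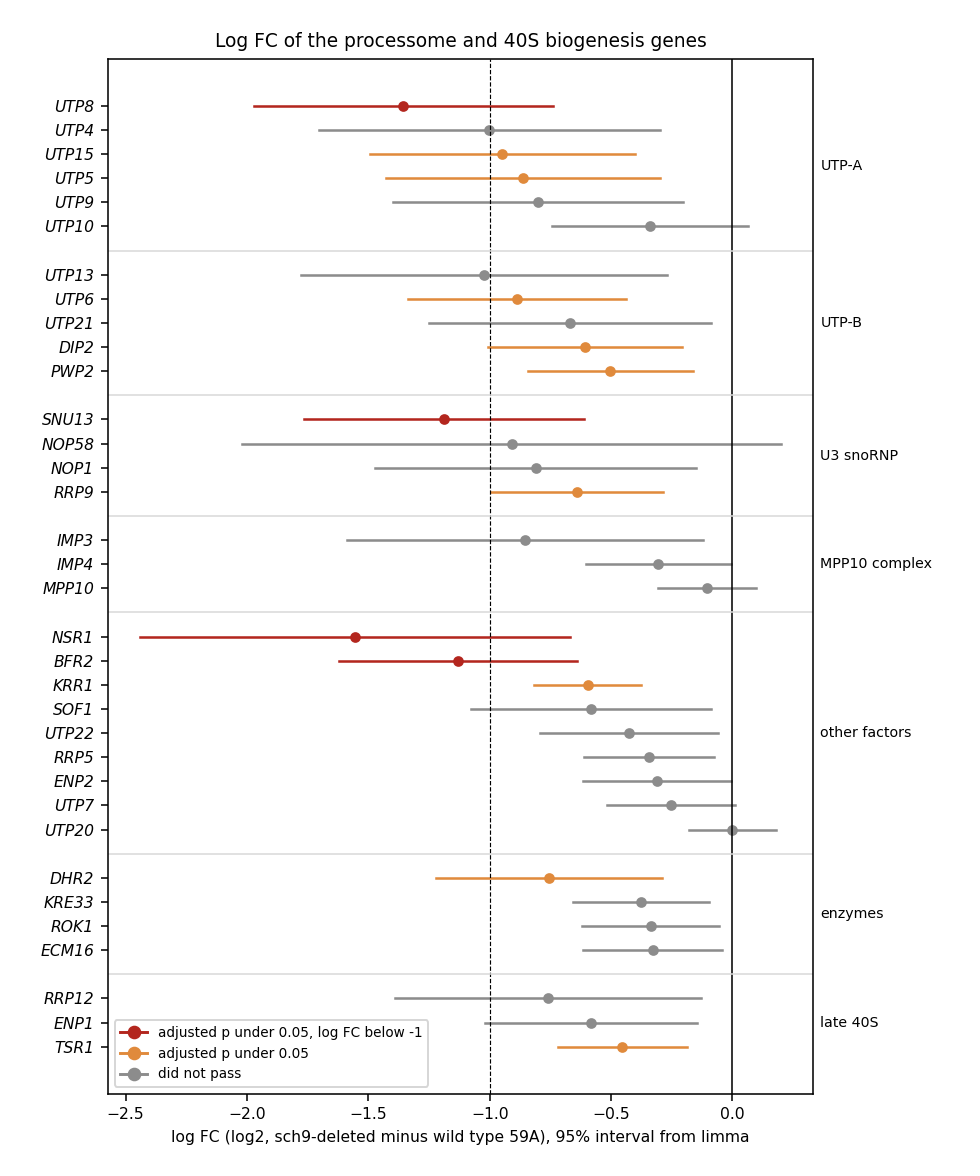
Log FC (horizontal axis, log2, sch9-deleted minus wild type 59A) of the 34 genes with its 95% interval from limma over 2 arrays per strain, coloured by the call and grouped by complex. The dashed line marks a log FC of -1, below which NSR1, UTP8, SNU13 and BFR2 also passed the test.

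The UTP-A proteins, also called t-UTPs, are the first to bind the 5′ external transcribed spacer of the nascent precursor. Of the 6 genes of this module among the 34, 3 were lower, with a median log FC of -0.91. UTP8, whose product has also been linked to nuclear export of tRNA, read 8.53 and 8.05 in the wild type and 7.23 and 6.64 in the mutant. The lowest wild type array was 0.82 above the highest mutant array, and the log FC was -1.36 ± 0.24 (SE, limma adjusted p = 0.0177), or 39.1% of the wild type signal. UTP15 was at a log FC of -0.95 ± 0.22 (limma adjusted p = 0.0315) and UTP5 at -0.86 ± 0.22 (limma adjusted p = 0.0436), both beta-propeller proteins. UTP4, a further propeller protein, had a larger log FC than either, -1.001, but missed the test (adjusted p = 0.0512), since its signal varied from 8.59 to 7.95 among wild type arrays and from 7.56 to 6.97 among mutant ones. UTP9 (log FC -0.80, adjusted p = 0.0593) was also near the threshold. UTP10, a long HEAT-repeat protein and the largest of the module, had the smallest difference in it (log FC -0.34, adjusted p = 0.172), and its mutant arrays (7.50 and 7.53) lay only 0.09 below its lower wild type array.

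UTP-B joins after UTP-A and contacts U3. Of its 5 genes among the 34, 3 were lower, with a median log FC of -0.67. UTP6, the module's HAT-repeat protein, went from 9.27 and 8.93 in the wild type to 8.418 and 8.005 in the mutant (log FC -0.89 ± 0.18, limma adjusted p = 0.0226). The WD-repeat proteins DIP2 (log FC -0.61 ± 0.16, limma adjusted p = 0.0445) and PWP2 (log FC -0.50 ± 0.13, limma adjusted p = 0.0473) passed just inside the threshold. PWP2 belongs to the dimmest 0.25 of the features, those with a mean under 7.40. UTP13 had the lowest log FC of the module, -1.03, but its wild type arrays differed by 0.77 and the test was missed (adjusted p = 0.0580). UTP21, another of these dim genes, was at a log FC of -0.67 (adjusted p = 0.0863). Outside the 34 genes, UTP18, the module's remaining WD-repeat protein, was lower too (log FC -0.65, limma adjusted p = 0.0454).

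The U3 snoRNP proteins bind the U3 RNA itself. Of the 4 genes 2 were lower, with a median log FC of -0.86. SNU13, which binds the kink-turn of box C/D RNAs and is also a component of the U4 spliceosomal particle, read 10.40 and 9.88 in the wild type and 9.19 and 8.72 in the mutant. The strains were 0.69 apart at their nearest arrays, and the log FC was -1.19 ± 0.23 (SE, limma adjusted p = 0.0208), or 43.9% of the wild type signal. RRP9, the one of the 4 that is specific to U3, was at a log FC of -0.64 ± 0.14 (limma adjusted p = 0.0286). NOP1, the yeast fibrillarin, which methylates ribosomal RNA, had a log FC of -0.81 (adjusted p = 0.0746). NOP58, a core protein of all box C/D particles, had the widest spread between arrays of 1 strain among the 34 genes. It read 10.03 and 8.83 in wild type 59A but 8.90 and 8.15 in the mutant, so the strains overlapped (log FC -0.91 ± 0.44, limma adjusted p = 0.182).

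Mpp10, Imp3 and Imp4 form a module that helps U3 to pair with the ribosomal RNA precursor. It had 0 of 3 genes past the test by limma (2 at an unadjusted p under 0.05), with a median log FC of -0.30. IMP3 read 8.34 and 7.50 in the wild type and 7.26 and 6.88 in the mutant (log FC -0.85, adjusted p = 0.0846). IMP4 was at a log FC of -0.30 (adjusted p = 0.115). MPP10, the scaffold of the module, read 7.67 and 7.54 in the wild type and 7.49 and 7.51 in the mutant. Its log FC was -0.10 with a 95% interval from -0.31 to 0.10 (limma adjusted p = 0.374).

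Of the 9 other assembly and structural factors 3 were lower, and they ranged from the lowest to the highest log FC of all 34 genes (median -0.43). NSR1, the yeast relative of nucleolin, an RNA-binding protein of the nucleolus, read 12.20 and 11.45 in the wild type and 10.69 and 9.86 in the mutant. Its log FC was -1.55 ± 0.35 (SE, limma adjusted p = 0.0309), which is 34.04% of the wild type signal, with a 95% interval from -2.44 to -0.67. BFR2, which works with Enp2 and Lcp5 in the processome, read 9.06 and 8.60 in the wild type and 7.89 and 7.51 in the mutant. The strains were 0.71 apart at their nearest arrays, with a log FC of -1.13 ± 0.19 (SE, limma adjusted p = 0.0157) or 45.7% of the wild type signal. KRR1, a KH-domain protein, had a moderate log FC, -0.60 ± 0.09, but the lowest adjusted p of the 34 genes (0.0107 by limma), because its arrays read 9.09 and 8.95 against 8.47 and 8.37.

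The remaining 6 of these factors did not pass. SOF1, a WD-repeat protein, was at a log FC of -0.58 (adjusted p = 0.0824), UTP22, of the UTP-C module, at -0.43 (adjusted p = 0.0858) and RRP5, an S1-repeat protein that serves both subunits, at -0.34 (adjusted p = 0.0678). ENP2, the partner of BFR2, was at -0.31 (adjusted p = 0.115). UTP7 read 9.38 and 9.13 against 9.02 and 8.98 (log FC -0.25, adjusted p = 0.129). UTP20, a very large HEAT-repeat protein, stood at the other end from NSR1. It read 8.53 and 8.54 in the wild type and 8.52 and 8.56 in the mutant, with a log FC of 0.00 and a 95% interval from -0.18 to 0.18 (limma adjusted p = 1). UTP20, MPP10 and UTP7 had the 3 highest log FC values of the 34 genes.

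The enzymes of the set are RNA helicases, which remodel the particle, and an RNA acetyltransferase. Of the 4 genes 1 was lower (median log FC -0.36). DHR2, a DEAH-box helicase, read 8.56 and 8.10 in the wild type and 7.73 and 7.42 in the mutant (log FC -0.76 ± 0.18, limma adjusted p = 0.0374). The others were close together, with ECM16 (also named Dhr1, the helicase that displaces U3) at a log FC of -0.33 (adjusted p = 0.0881), the DEAD-box helicase ROK1 at -0.34 (adjusted p = 0.0792) and KRE33, which acetylates cytidines of 18S rRNA, at -0.38 (adjusted p = 0.0596). ROK1 and KRE33 also have means under 7.40. Of the 3 factors that stay with 40S precursors to late or export steps 1 was lower (median log FC -0.58). TSR1, a GTPase-like protein of cytoplasmic pre-40S particles, read 8.89 and 8.63 against 8.32 and 8.30 (log FC -0.45 ± 0.11, limma adjusted p = 0.0329). RRP12, a HEAT-repeat export factor (log FC -0.76, adjusted p = 0.0785), and ENP1, which travels with the pre-40S particle from the nucleolus (log FC -0.58, adjusted p = 0.0604), did not pass. The order of the modules was not tested, and single genes of UTP-A and of the other factors each cover most of the range.

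The 34 genes varied together between arrays of 1 strain as well. Replicate 1 was above replicate 2 in 33 of 34 genes in the wild type, by a median of 0.43 on the log2 scale (range -0.01 to 1.20), and in 31 of 34 in the mutant, by a median of 0.17 (range -0.04 to 0.83). Over all features the medians were -0.02 in both strains, and replicate 1 was above in 44.6% and 42.5% of features. Related lists described below were shifted too, with wild type and mutant medians of 0.45 and 0.23 for 60S assembly factors. They were 0.40 and 0.21 for other processome and 40S assembly genes, and 0.23 and 0.23 for 40S ribosomal proteins. A wild type difference above 0.43 was found in 4.84% of all features. In 6 of the 34 genes the wild type arrays differed from each other by more than the strains did. Relative to each gene's own mean over the 4 arrays, the genes stood at a median of 0.53 in wild type replicate 1, 0.06 in wild type replicate 2, -0.21 in mutant replicate 1 and -0.40 in mutant replicate 2.

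The genes with the lower log FC were also those that differed more between arrays of 1 strain. Across the 34 genes, which are not independent replicates and share the same 4 arrays, log FC and the wild type difference had r = -0.66 (rho = -0.75), and log FC and the mutant difference r = -0.87 (rho = -0.84), where over all features r was -0.31 and -0.52. UTP20 and MPP10 were nearly flat in all 3 respects. NSR1 was at the other end, with replicate 1 above replicate 2 by 0.75 in the wild type and by 0.83 in the mutant.

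**Figure D3:**
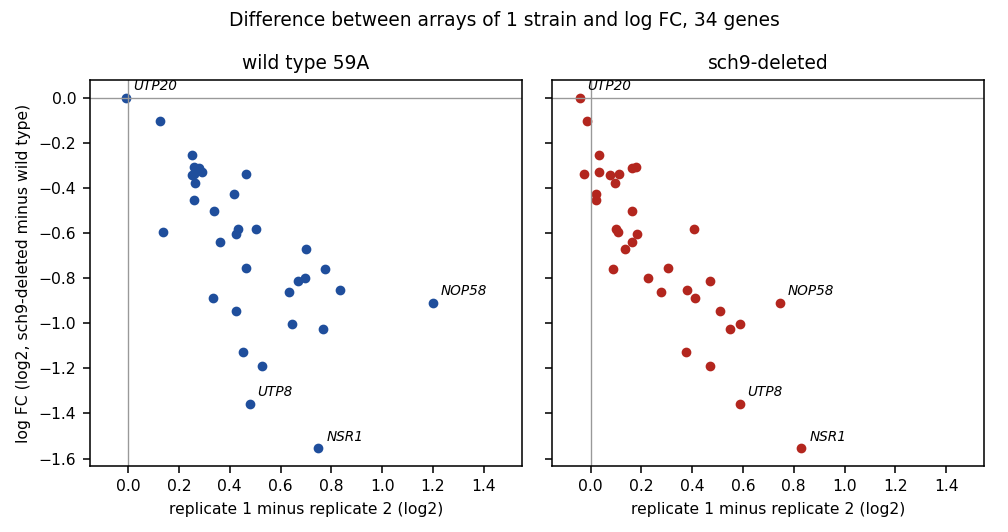
Difference between replicate 1 and replicate 2 (horizontal axis, log2) of wild type 59A on the left and of the sch9-deleted mutant on the right, against the log FC between the strains (vertical axis, log2), with 1 point for each of the 34 genes. Points fall towards the lower right in both panels, from UTP20 near the origin to NSR1, and NOP58 has the widest difference in the wild type.

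With groups this small the calls depended on single arrays. The direction of the 13 could not change here, since in each of them both mutant arrays read below both wild type arrays. Each array was left out in turn, which leaves 1 array of that strain, assumed to vary like the arrays of the other strain. Without wild type replicate 1, the array with the highest values for these genes, 17 were lower (18.9% of all features) and the median log FC was -0.37. All 13 genes called with the 4 arrays still passed, at log FC values between -1.18 and -0.32, and DIP2, PWP2 and UTP5 moved by over 1.5 times. Without wild type replicate 2, 32 were lower (20.4% of features), with a median of -0.83, and the exceptions were MPP10 and UTP20. Without mutant replicate 1, 6 were lower (3.08% of features), with a median of -0.73. These were NSR1, UTP8, SNU13, BFR2, UTP15 and UTP6, and the other 7 had adjusted p-values from 0.0562 to 0.145. Without mutant replicate 2, 0 were lower by limma (0.932% of features), although 12 were below the wild type at an unadjusted p under 0.05 and the median was -0.54. The 13 genes then had log FC values between -1.14 and -0.42 and adjusted p-values from 0.0722 to 0.278. The count of down-regulated genes also changed with the array left out, and no share of all features at that threshold is given for these fits. With slide position as a covariate NSR1 (adjusted p = 0.0502), UTP15 (0.0562) and PWP2 (0.0577) missed the test, as did PWP2 with arrays scaled to their 75th percentile (0.0513) and UTP5 with robust eBayes (0.0555). UTP4 and UTP13 were just short of the threshold with all arrays. With an array left out, their log FC lay from -1.32 to -0.68 and from -1.41 to -0.64. UTP4 passed after quantile normalisation (limma adjusted p = 0.0467) and median centring (0.0461), where UTP13 did not. Both passed without the dimmest 0.25 of features (0.043 and 0.0487), with an intensity trend (0.0416 and 0.047) and with replicate numbers as a block. Both missed the test with slide position as a covariate, 75th percentile scaling and robust eBayes.

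**Figure D4:**
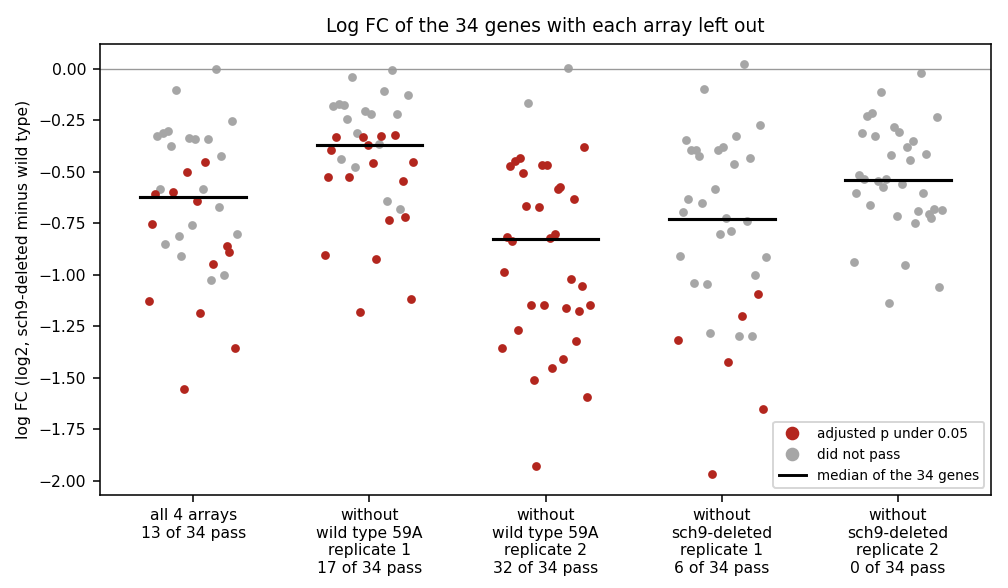
Log FC (vertical axis, log2, sch9-deleted minus wild type 59A) of the 34 genes with all 4 arrays and with each array left out, with red points for an adjusted p under 0.05, a bar for the median, and points spread sideways only for legibility. The median moves from -0.37 without wild type replicate 1 to -0.83 without wild type replicate 2. The number of genes past the test also changes, as does the share of all features past it.

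Other genes of ribosome assembly were set beside the 34, from lists written from general knowledge of these pathways. Of 56 further processome and 40S assembly genes 37 were named on the arrays, with a median log FC of -0.52. Of these 13 were lower (35.1%), 2 higher (5.41%) and 22 short of the threshold. Among all features 12.1% were lower and 14.6% higher. The lowest was NOP56 (SIK1 in the array annotation), the partner of NOP58 in box C/D particles, at 10.13 and 9.47 in the wild type and 8.91 and 8.35 in the mutant (log FC -1.17, limma adjusted p = 0.0340). LCP5, a partner of BFR2 (log FC -0.81, limma adjusted p = 0.0271), and NAN1, a UTP-A protein that was not among the 34 (log FC -0.81, limma adjusted p = 0.0153), were the next lowest of those that passed. Against the direction of the list, RIO1, an atypical kinase that acts at the end of 40S maturation in the cytoplasm, read 9.73 and 9.34 in the wild type and 10.16 and 10.08 in the mutant (log FC 0.58, limma adjusted p = 0.0381). The casein kinase HRR25, which phosphorylates late pre-40S factors, was the other gene called higher (log FC 0.29, limma adjusted p = 0.0372). Both kinases missed the test without either mutant array, at adjusted p-values between 0.154 and 0.306.

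The 60S assembly factors stood close to the 34 genes. Of 51 measured, 21 were lower (41.2%) and 0 higher, where 12.1% of all features were lower and 14.6% higher. Their median log FC was -0.63, beside -0.62 for the 34 genes, and the difference between the lists was not tested. DBP2, an RNA helicase, was the lowest at 10.35 and 9.16 against 7.98 and 6.96 (log FC -2.28, limma adjusted p = 0.0269). NOG2, a GTPase of pre-60S particles (log FC -1.24, limma adjusted p = 0.0411), and SPB1, an rRNA methyltransferase (log FC -1.12, limma adjusted p = 0.0156), were the next lowest of those that passed, while the helicase DBP7 read highest (log FC 0.45, adjusted p = 0.150). The genes of the 40S ribosomal proteins themselves had a median log FC nearer to 0. Of 55 measured genes 10 were lower (18.2%, beside 12.1% of all features) and 0 higher (beside 14.6%). Their median log FC was -0.25, against -0.01 over all features. Of the 55 genes 45 had a log FC below 0, as did 3220 of the 6226 features. With slide position as a covariate 2 were lower, where 7.15% of all features were. RPS26B (log FC -1.13, limma adjusted p = 0.0222), RPS22A (log FC -0.96, limma adjusted p = 0.0301) and RPS28A (log FC -0.61, limma adjusted p = 0.0102) were the lowest of those that passed, and RPS9A the highest of the list (log FC 0.47, adjusted p = 0.103). Most of these genes come in near-identical pairs whose probes may share signal. Without mutant replicate 2, 0 genes of any of the 3 lists were lower.

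**Figure D5:**
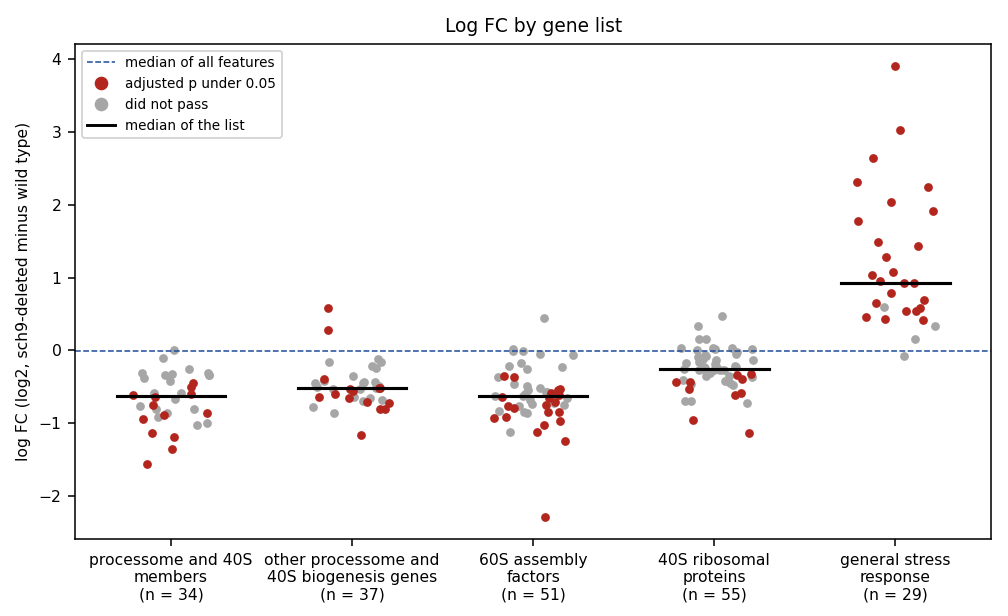
Log FC (vertical axis, log2, sch9-deleted minus wild type 59A) of each measured gene of 5 lists, with red points for an adjusted p under 0.05, black bars for list medians, a dashed line for the median of all features, and points spread sideways only for legibility. The medians are -0.62 for the 34 genes, -0.52 for other processome and 40S assembly genes, -0.63 for 60S assembly factors, -0.25 for 40S ribosomal proteins and 0.93 for general stress genes.

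Among 15 measured regulators of ribosome genes, 2 were lower, including SCH9 itself, and 3 higher, shares (13.3% and 20.0%) near those of all features (12.1% and 14.6%). STB3, which binds the RRPE element of ribosome biogenesis promoters, read 8.89 and 8.95 in the wild type and 9.41 and 9.45 in the mutant (log FC 0.51 ± 0.07, limma adjusted p = 0.0103). DOT6, which binds the PAC element, read 12.94 and 13.06 against 13.38 and 13.32 (log FC 0.35 ± 0.08, limma adjusted p = 0.0321). RAP1, a general activator of ribosomal protein genes, was also higher (log FC 0.74 ± 0.08, limma adjusted p = 0.00455), and MAF1, the repressor of RNA polymerase III, was lower (log FC -0.32 ± 0.07, limma adjusted p = 0.0298). SFP1, an activator of the regulon, had a log FC of -0.02 (adjusted p = 0.928), and TOD6 was not matched to a symbol here. Replicates of STB3 differed by at most 0.06 and those of DOT6 by at most 0.11. STB3, DOT6 and MAF1 missed the test without either mutant array (adjusted p from 0.0757 to 0.240) and RAP1 without mutant replicate 2 (adjusted p = 0.0630). In contrast to the assembly genes, of 29 genes of the general stress response, which Msn2 and Msn4 activate, 25 were higher and 0 lower (median log FC 0.93). HSP12, a membrane-protecting stress protein (log FC 3.90), GRE1 (log FC 3.04) and the aldehyde dehydrogenase ALD3 (log FC 2.65) had the highest values, and UBI4, polyubiquitin, the lowest (log FC -0.08, adjusted p = 0.512).

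The genes next to the 34 on the chromosome were also examined, with neighbours taken from the gene order of the RefSeq annotation of assembly R64 and named here after their values were seen. Of 14 neighbours that are transcribed away from a shared intergenic region, 13 were named on the arrays, and of these 0 were lower and 0 higher by limma, where 12.1% of all features were lower and 14.6% higher (2 below and 2 above the wild type at an unadjusted p under 0.05, with a median log FC of -0.07). Beside UTP8 (log FC -1.36) lay SYF2, a splicing factor, at 0.06 (adjusted p = 0.663). Beside BFR2 (log FC -1.13) lay ATP5, a subunit of the mitochondrial ATP synthase, at 0.02 (adjusted p = 0.889), with 8.81 and 8.87 in the wild type and 8.84 and 8.88 in the mutant. Beside UTP6 (log FC -0.89) lay RPS18A, a ribosomal protein gene, at -0.07 (adjusted p = 0.726). In other pairs both values were below 0, as for RRP5 (log FC -0.34) and RPS10B (-0.27) and for TSR1 (log FC -0.45) and RPS29B (-0.24). In others again the neighbour was above 0, as for IMP3 (log FC -0.85) and MRPL6 (0.32) and for UTP21 (log FC -0.67) and VIP1 (0.33). None of these neighbours passed the test. The difference within a pair was not tested. Of 27 measured neighbours in the same orientation 6 were lower and 0 higher (median log FC -0.12), the lowest of which was HPT1, a purine salvage enzyme beside UTP5, at a log FC of -0.94 (limma adjusted p = 0.00443). Of 11 neighbours that converge on a processome gene 1 was lower and 2 were higher (median log FC 0.03). These were PRO1 of proline synthesis beside BFR2 (log FC -0.53, limma adjusted p = 0.0113), SER3 of serine synthesis beside UTP7 (log FC 0.68, limma adjusted p = 0.0192) and MLF3 beside IMP4 (log FC 0.70, limma adjusted p = 0.0107). These 3 missed the test without mutant replicate 2 (adjusted p from 0.102 to 0.145), and PRO1 and SER3 also without mutant replicate 1 (adjusted p of 0.0826 and 0.0537).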

How the data were processed

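Cy3-labelled RNA of 2 samples per strain was hybridised to one-colour Agilent arrays. Per the methods the authors read the spots with GenePix and applied limma's quantile normalisation (R 2.14.2), and the deposited values are log2 intensities, 1 per probe. Their range fits a log2 scale, which no header states. The background correction was not given in the sources used here. Quantile normalisation sets arrays to 1 distribution, though the medians of the deposited values differed slightly (8.52 to 8.53). Values are thus relative to the other RNAs of an array, and the number of arrays limits the precision.

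Of 6227 probes, 4061 had 1 gene symbol in the annotation and 2166 were unnamed here. Probes of 1 gene were averaged, giving 6226 features. The contrast was fitted with limma 3.58.1 (lmFit, eBayes) in R 4.3.3, with Benjamini-Hochberg adjustment, 2 residual and 3.29 prior degrees of freedom. The smallest p of an exact permutation test, 2 arrays against 2, is 0.333, and the calls depend on limma's pooling of variance over genes. The fitting script was tested on simulated data. Labels call the replicates biological without naming separate cultures, so p-values measure the spread between these samples.

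The 34 genes, the comparison lists and the tests were chosen with earlier results of these data known. Lists are described by counts and medians, with no test of a list. All array values were given for down-regulated members, SCH9 and the 3 members of highest log FC, and other members by complex. From each other list up to 3 genes with the largest called change and the 1 farthest against the list's direction were named. Further array values, HRR25, UTP18 and chromosomal neighbours were added after values were seen. The planned search for promoter motifs was not run, because no sequences were used here.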

Additional observations from a re-analysis of the deposited data

How the results depend on the processing

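The 34 genes, and the 3 lists of assembly and ribosomal protein genes, were refitted under 14 alternatives. Quantile normalisation, median centring, 75th percentile scaling, an intensity trend, robust eBayes, the brightest probe and leaving out the dimmest 0.25 of features (30 members tested, without PWP2, UTP21, ROK1 and KRE33) gave 12 to 16 lower members (13 as reported) and 4 to 6 down-regulated ones (4 as reported). In these fits 10.9% to 14.7% of the features tested were lower, and no share of them is given for down-regulation. Under every alternative 0 members were higher. The 13 genes kept their sign wherever tested, but their strains did not overlap, so leaving out an array could not change it. The intensity trend, robust eBayes, the replicate block, treat and leaving out dim features do not alter their log FC. Tested against a log2 fold change of 0.5 with limma's treat, 0 members were lower or down-regulated (6 at an unadjusted p under 0.05), and 0 genes of the other lists passed. Of all features 0.546% were lower in that test. Slide position as a covariate gave 15 lower members, of which 10 were among the 13, where 7.15% of all features were lower (12.1% as reported). It gave 2 lower ribosomal protein genes in place of 10. Higher processome genes outside the 34 were 0 in place of 2, with 1 under the intensity trend. The labels do not say whether a replicate number marks a shared batch. With the numbers as a block, 32 members were lower (21.1% of features), with 31 further processome genes, 41 60S factors and 31 ribosomal protein genes. Deviations of same-numbered arrays had r = 0.53 over all features. Leaving out 1 array gave 0 to 32 lower and 0 to 15 down-regulated members, a median log FC from -0.83 to -0.37, 0 to 32 lower and 0 to 2 higher further processome genes, 0 to 45 lower 60S factors and 0 to 27 lower ribosomal protein genes. The longer promoter motifs were not run. Causes of these shifts were not tested. With 2 arrays per strain, the 14 members at adjusted p-values between 0.05 and 0.1 cannot be sorted into changed and unchanged.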
